A study of Mus musculus with 16 samples.

Results

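Open chromatin at the start of noncoding RNA genes was examined in mouse pancreatic islets. The regions were merged from the accessible chromatin peaks of 16 samples, and a region was kept if it was called in all 16, was under 5 kb wide, lay within 1 kb of a start site of a gene that is not annotated as protein-coding, and lay over 3 kb from every protein-coding start site. The rule kept 1687 of the 40930 autosomal regions that were called in every sample, out of 358621 merged autosomal regions. They carried 1833 annotated genes, and 1535 of the regions held a single such gene. The median distance to the nearest protein-coding start was 32421 bases. The members were thus selected on the peak calls of all 16 samples, so a start site closed in any strain could not enter, and the presence of these regions in all strains is not a result. Under the same limits of width and distance, 306 regions were called in 15 samples and 4739 in 1 sample.

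The samples came from 8 inbred strains that founded the Diversity Outbred mice. Classical strains were 129 (129S1_SvImJ), AJ (A_J), B6 (C57BL/6J), NOD (NOD_ShiLtJ) and NZO (NZO_HlLtJ), and wild-derived strains were CAST (CAST_EiJ), PWK (PWK_PhJ) and WSB (WSB_EiJ). Each strain gave 1 female and 1 male sample of 50 islets, untreated, and the labels used here give neither the age of the mice nor the number of mice behind a sample. The assay was ATAC-seq, in which a transposase cuts accessible DNA and tags it for sequencing, and the measure was the signal at the summit of a peak. Scaled signal is that value divided by the median of the sample over all 42416 shared regions, so that 1 is a typical shared region. Both sexes of a strain served as its 2 samples, and p-values measure only the spread between these samples, which may be technical.

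Noncoding RNA genes are read by several polymerases from promoters of different make. RNA polymerase II starts long noncoding RNAs, the primary transcripts of most microRNAs and the spliceosomal small nuclear RNAs U1 and U2, whereas RNA polymerase III reads U6 and 7SK. MicroRNAs pair through a short seed with messenger RNAs and lower their output, small nucleolar RNAs guide the modification of ribosomal RNA, and several long noncoding RNAs silence neighbouring genes on the chromosome inherited from 1 parent. Pseudogenes and loci that await experimental support (the TEC genes of GENCODE) are also not annotated as protein-coding and so entered by the rule.

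Between 80392 (AJ male) and 173735 peaks (WSB female) were listed per sample, with a median summit signal of 10 (PWK male) to 40 (NOD female). The lists carry no read totals, so that they do not give the depth behind a value. Over the 1687 regions, both sexes of a strain correlated with a Pearson r of 0.855 in NZO to 0.976 in CAST, across regions that are not independent replicates. As a check of the tissue, the promoters of 8 of 8 beta cell genes and 3 of 4 alpha cell genes were called in all 16 samples. Of the delta cell genes, Hhex was called in all 16 and Sst in 1. None of 6 acinar, 5 leukocyte or 4 endothelial genes was called in all 16, against 1 of 4 duct genes (Cftr) and 1 of 4 mesenchymal genes (Col1a2). In a bulk sample, fewer cells of a type and less accessible chromatin per cell cannot be told apart.

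Small nuclear RNA genes are shown first, since they exist in many near-identical copies and the regions picked out some of them. The sequences run from 70 bases before the start to the first 30 bases of the RNA, 5′ to 3′ on the strand of the gene, read from GRCm38, and the capitals mark the first 9 bases by which intact copies were found.
U1 Gm22634 (chr12:54710238-54710337, + strand): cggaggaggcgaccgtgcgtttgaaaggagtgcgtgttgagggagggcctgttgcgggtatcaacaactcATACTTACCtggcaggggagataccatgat
U1 Gm23804 (chr12:54714148-54714247, + strand): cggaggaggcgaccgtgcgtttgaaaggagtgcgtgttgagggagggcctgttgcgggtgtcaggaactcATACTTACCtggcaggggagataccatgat
U1 Gm25679 (chr12:54719297-54719396, - strand): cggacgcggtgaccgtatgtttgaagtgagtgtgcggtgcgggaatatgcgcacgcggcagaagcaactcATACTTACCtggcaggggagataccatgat
U1 Gm25890 (chr3:96486690-96486789, - strand): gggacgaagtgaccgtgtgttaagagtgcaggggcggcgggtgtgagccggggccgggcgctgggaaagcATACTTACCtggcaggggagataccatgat
U2 Gm25360 (chr1:72226170-72226269, + strand): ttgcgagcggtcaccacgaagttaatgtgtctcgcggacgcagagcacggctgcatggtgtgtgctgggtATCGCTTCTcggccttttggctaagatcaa
U2 Gm24950 (chr11:101641678-101641777, + strand): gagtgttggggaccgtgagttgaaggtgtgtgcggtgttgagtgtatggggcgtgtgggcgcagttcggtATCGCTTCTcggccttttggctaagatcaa
U2 Gm22973 (chr12:59040265-59040364, + strand): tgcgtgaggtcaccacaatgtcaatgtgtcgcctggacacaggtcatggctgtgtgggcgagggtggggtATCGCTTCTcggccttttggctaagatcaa
U6 Gm24859 (chr12:52603718-52603817, + strand): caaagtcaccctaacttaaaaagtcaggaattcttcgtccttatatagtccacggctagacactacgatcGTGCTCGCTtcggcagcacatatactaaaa
U6 Gm25064 (chr9:63133213-63133312, + strand): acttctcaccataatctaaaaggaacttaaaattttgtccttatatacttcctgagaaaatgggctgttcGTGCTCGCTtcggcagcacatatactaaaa
The U1 copies shared their RNA but not their upstream bases. Over the 70 upstream bases, Gm22634 and Gm23804 were 95.7% identical, either was 61.4% to 62.9% identical to Gm25679, and the chromosome 3 copy Gm25890 was 51.4% to 55.7% identical to those 3. The letters TATA, which read the same on both strands, stood at −29 from the start in all 3 U6 genes inside the regions and in none of the 17 U1 and U2 genes. In the same stretch they were present in 11.8% of all 32851 RefSeq promoters.

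Promoters of long noncoding RNAs are shown for 4 genes with different roles and for 3 neighbouring genes that were among the most accessible. Each run covers 200 bases before to 50 bases after the start in RefSeq on GRCm38.p6, 5′ to 3′ on the strand of the gene, and the capitals mark the matches to the letters listed after them.
Snhg15 (chr11:6528711-6528960, - strand): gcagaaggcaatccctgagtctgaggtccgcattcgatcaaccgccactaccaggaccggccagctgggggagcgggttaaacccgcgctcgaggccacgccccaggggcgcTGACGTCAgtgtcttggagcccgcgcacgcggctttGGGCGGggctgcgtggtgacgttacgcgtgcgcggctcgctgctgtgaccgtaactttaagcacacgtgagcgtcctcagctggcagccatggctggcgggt
Snhg5 (chr9:88522848-88523097, - strand): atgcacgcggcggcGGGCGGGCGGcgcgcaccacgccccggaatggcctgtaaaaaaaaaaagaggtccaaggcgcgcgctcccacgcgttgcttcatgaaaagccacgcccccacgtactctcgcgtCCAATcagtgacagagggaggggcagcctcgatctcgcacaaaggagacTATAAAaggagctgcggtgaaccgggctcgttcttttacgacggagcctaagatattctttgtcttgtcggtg
Meg3 (chr12:109540796-109541045, + strand): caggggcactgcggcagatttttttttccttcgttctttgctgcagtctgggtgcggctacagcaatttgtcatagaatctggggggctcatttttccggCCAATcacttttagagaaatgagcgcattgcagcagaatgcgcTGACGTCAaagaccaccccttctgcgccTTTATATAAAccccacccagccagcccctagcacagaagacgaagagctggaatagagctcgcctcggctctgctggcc
Kcnq1ot1 (chr7:143296498-143296747, - strand): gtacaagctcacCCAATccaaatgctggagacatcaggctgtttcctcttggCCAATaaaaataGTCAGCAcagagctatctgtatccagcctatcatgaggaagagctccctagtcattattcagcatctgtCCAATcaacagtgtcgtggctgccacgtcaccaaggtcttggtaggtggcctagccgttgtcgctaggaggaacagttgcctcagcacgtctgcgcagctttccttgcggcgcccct
BC002059 (chr17:16951336-16951585, + strand): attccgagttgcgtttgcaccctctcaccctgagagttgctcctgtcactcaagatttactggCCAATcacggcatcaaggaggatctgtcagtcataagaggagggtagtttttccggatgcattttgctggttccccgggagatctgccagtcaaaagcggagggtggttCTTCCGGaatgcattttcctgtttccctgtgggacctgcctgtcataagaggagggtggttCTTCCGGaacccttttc
Gm6712 (chr17:17294243-17294492, + strand): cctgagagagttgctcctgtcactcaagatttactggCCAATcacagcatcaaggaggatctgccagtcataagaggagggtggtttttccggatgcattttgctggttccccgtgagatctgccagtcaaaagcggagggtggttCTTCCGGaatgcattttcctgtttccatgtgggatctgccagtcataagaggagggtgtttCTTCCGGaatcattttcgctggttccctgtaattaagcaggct
Gm5165 (chr17:17234703-17234952, + strand): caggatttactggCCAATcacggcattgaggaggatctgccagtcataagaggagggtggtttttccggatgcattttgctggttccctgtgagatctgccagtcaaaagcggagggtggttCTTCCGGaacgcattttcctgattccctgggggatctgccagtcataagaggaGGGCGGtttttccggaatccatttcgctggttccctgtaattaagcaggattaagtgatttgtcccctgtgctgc
The letters were searched on both strands and are a description of the sequence, not of binding. Position −1 is the base before the start. TGACGTCA, the palindrome read by CREB and ATF factors, began at −88 in Snhg15 and at −57 in Meg3, and 1.71% of the 32851 promoters held it in the same stretch. TATAAA began at −25 in Meg3, where a match on the other strand overlapped it, and at −23 in Snhg5, against a share of 11.3% of promoters. GGGCGG, the letters of SP and KLF factors, occurred at −52 in Snhg15, at −186 and −182 in Snhg5, where the matches overlapped, and at −25 in Gm5165 (34.2% of promoters). CCAAT, the box of NFY, stood at 3 places in Kcnq1ot1 (−188, −148 and −67) and once in each of the other shown promoters but Snhg15 (33.2% of promoters). TGCTGAC, a MAF half-site, was found at −136 in Kcnq1ot1 (4.08% of promoters). CCGGAAG, read by ETS factors, began at −28 and 34 in BC002059, at −54 and 8 in Gm6712 and at −78 in Gm5165, against 8.26% of promoters. The 3 neighbours were 62.0% to 78.3% identical over an alignment of these stretches. RefSeq promoters matched 461 of the 1826 gene symbols.

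Mature microRNAs are shown for 5 genes of the regions that are well studied or strongly accessible, with the seed (bases 2 to 8) in capitals. They are RefSeq sequences on GRCm38.p6.
mmu-miR-17-5p (chr14:115043684-115043706, + strand): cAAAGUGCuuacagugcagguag
mmu-miR-125b-5p (chr16:77646279-77646300, + strand): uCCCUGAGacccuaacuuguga
mmu-miR-148a-3p (chr6:51269829-51269850, - strand): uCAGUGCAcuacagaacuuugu
mmu-miR-30a-5p (chr1:23272274-23272295, + strand): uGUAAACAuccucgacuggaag
mmu-miR-153-3p (chr12:117250860-117250881, + strand): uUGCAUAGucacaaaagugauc
No seed was shared among these 5. In all, 87 microRNA genes lay at 85 of the regions, and RefSeq gave a mature sequence for 42 of them.

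Long noncoding RNA genes made up most of the set. A region with several gene types was counted under the first of long noncoding RNA, microRNA, other small RNA, TEC, receptor segment and pseudogene. By this order, 937 of the 1687 regions (55.5%) belonged to long noncoding RNAs, 324 to pseudogenes and 172 to TEC genes. Small RNAs other than microRNAs had 152, microRNAs 80 and immunoglobulin or T cell receptor segments 22. These segments carry gene types of their own, and most encode protein. Trbv10, Trav13-3 and Ighv4-2 among them are annotated as pseudogenes. Set against all genes of a class that lie over 3 kb from a protein-coding start, 951 of 7019 long noncoding RNA genes (13.5%) had such a region. The share was 5.69% for microRNAs (85 of 1493) and 3.41% for pseudogenes (366 of 10734). Of the regions, 1230 lay outside protein-coding genes, 387 in their introns and 70 touched their exons.

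The regions were intermediate in width and signal between coding promoters and distal regions. They are called noncoding RNA promoters below for their position near a start, and whether each acts as a promoter was not tested. The name also covers the pseudogene, TEC and receptor segment regions. The median width was 1216 bases, compared with 1733 at 8760 coding promoters chosen in the same way and 921 at 23972 shared regions away from every start site. The median scaled signal was 1.05 at the noncoding RNA promoters, 1.75 at coding promoters and 0.844 away from start sites. Of the noncoding RNA promoters, 80% lay between 0.475 and 3.34. Median levels differed little by gene class, from 0.809 for receptor segments and 0.940 for pseudogenes to 1.09 for long noncoding RNAs and 1.17 for microRNAs. No test was made over these sets because peak calls chose them.

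Most of these regions were poor in CpG, the dinucleotide that is dense at the promoters of widely expressed genes. The ratio of observed to expected CpG was taken in the 300 bases around the summit and called high at 0.6 or above. It was high in 315 noncoding RNA promoters (18.7%), 5820 coding promoters (66.4%) and 1025 regions away from start sites (4.28%). The medians were 0.317, 0.743 and 0.224. Between gene classes, 20.8% of long noncoding RNA regions and 23.8% of microRNA regions had high CpG, against 9.30% of TEC regions and none of the 22 receptor segment regions.

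**Figure D1:**
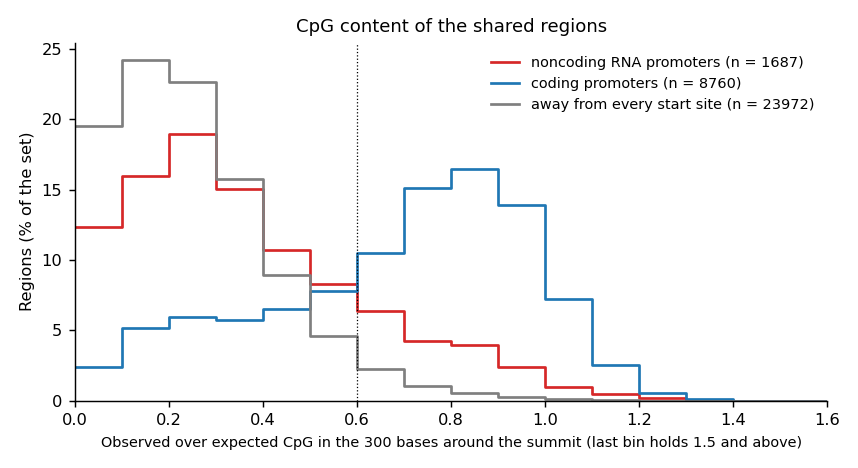
Share of regions (vertical axis, percent of each set) by the ratio of observed to expected CpG in the 300 bases around the summit (horizontal axis, no unit), for 1687 noncoding RNA promoters, 8760 coding promoters and 23972 shared regions away from every start site. The dotted line marks 0.6, and the noncoding RNA promoters peak at low ratios with a tail to high ones that holds 18.7% of them.

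The high-CpG promoters were the stronger ones and were centred closer to the annotated start. Their median scaled signal was 1.55, compared with 0.964 in the 1372 low-CpG promoters. High-CpG regions were also stronger at coding promoters (2.09 against 1.18) and away from start sites (1.10 against 0.835). Over all shared regions the medians were 2.02 and 0.874. The median distance from summit to start was 157 bases with high CpG and 473 bases with low CpG. The summit lay within 100 bases of the start in 38.7% of the high-CpG and 22.2% of the low-CpG promoters.

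The same split ran through the short letters of known factors, searched on both strands in the 300 bases around the summit. GGGCGG (SP and KLF factors) was present in 53.3% of the high-CpG and 9.91% of the low-CpG promoters, as its letters hold a CpG. TGANTCA (AP-1) was present in 8.25% and 17.7%, and CAGATGG (NEUROD1, a factor of endocrine cells) in 5.40% and 12.5%. Over all 1687 noncoding RNA promoters, GGGCGG occurred in 18%, between 59.6% of coding promoters and 6.69% of regions away from start sites. CCGGAAG (ETS factors) occurred in 4.62%, 15.6% and 1.61% of these sets. AP-1 letters ran the other way, with 15.9% of noncoding RNA promoters, 6.75% of coding promoters and 19% of distal regions. TGTTTAC (FOXA factors) was found in 7.65%, 3.54% and 10.4%, and NEUROD1 letters in 11.2%, 4.63% and 12.1%. CCAAT was found in 34.8%, 37.8% and 33.1%.

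The summit often stood away from the annotated start. Distances were taken to the nearest noncoding start of any gene type, also where a region was counted under another class. Over all 1687 regions the median distance was 383 bases, the start itself lay inside the region in 1088 (64.5%), and the summit was within 100 bases in 427 (25.3%). Long noncoding RNAs had a median distance of 276 bases with 30.1% within 100 bases, and small RNAs other than microRNAs had 337.5 bases with 30.3%. Pseudogenes (631.5 bases, 16.4%) and TEC genes (700.5 bases, 15.1%) were farther. MicroRNA regions had a median of 550 bases, and a microRNA is cut from a longer transcript, so that its annotated start is not the start of transcription.

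**Figure D2:**
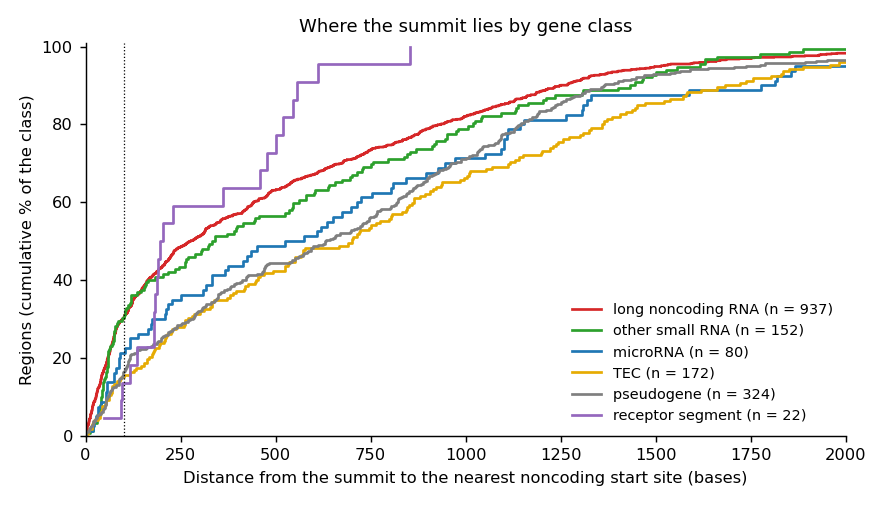
Cumulative share of regions in each gene class (vertical axis, percent) by the distance from the summit to the nearest noncoding start site (horizontal axis, bases), with the number of regions in the legend. The dotted line marks 100 bases, where the curves of long noncoding RNAs and other small RNAs stand at 30.1% and 30.3% and those of pseudogenes and TEC genes at 16.4% and 15.1%.

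Signal at the noncoding RNA promoters varied between strains about as often as in distal regions. Strain was tested with the moderated F test of limma on log2(signal + 1) across all 42416 shared regions, with sex in the model, and a region was called at a Benjamini-Hochberg adjusted p under 0.05. Among all regions tested, 34.9% were called for strain. Of the noncoding RNA promoters, 668 (39.6%) were called, compared with 23.9% of coding promoters and 40.7% of regions away from start sites. Without centring on the sample medians 1102 promoters (65.3%) and 62.3% of all regions were called, and 336 promoters (19.9%) and 17.9% of all regions when those called in at least 12 samples were fitted. Within the high-CpG class the shares were 31.7%, 17.8% and 31.1%, and within the low-CpG class 41.4%, 36.1% and 41.1%. By gene class, 26.3% of microRNA regions, 38.4% of TEC, 39.1% of long noncoding RNA, 40.8% of other small RNA and 42.0% of pseudogene regions were called, whereas 17 of 22 receptor segment regions (77.3%) were.

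The size of the strain differences is given at the called promoters, which the test itself chose for a spread between strains above that between the sexes. The range of the 8 strain means, on the log2 scale, had a median of 1.64 over the 668 called promoters and of 1.61 over all called regions. The median gap between the sexes of a strain at the called promoters was 0.27. A range over 2 log2 units was found in 198 of them (29.6%, against 24.8% of all called regions) and over 3 units in 44. CAST was the lowest strain at 198 of the 668 (29.6%) and also the highest at 114 (17.1%), with shares of 30.1% and 15.1% over all called regions. B6 was lowest at 36 (5.39%), against 6.76% of all called regions. The mm10 genome is that of B6, and reads of every strain were aligned to it. The authors also aligned reads to individualized genomes, reported small differences and kept the mm10 alignments. They found no more strain-specific peaks in B6 than in other strains. The part of alignment in the low values of CAST at these promoters was not tested. The number of calls changed with the samples fitted, for reasons that were not tested. Without both CAST samples 315 promoters (18.7%) were called, when 15% of all regions were. Without the CAST female or male alone 391 or 387 were called (18.3% and 18.6% of all regions), and without the NZO female 1043 (59.3% of all regions).

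Among the promoters with the smallest strain p, 3 long noncoding RNA genes of unknown function showed losses in named strains. AC132253.9 (chr19:9836044-9837775, outside coding genes with the start inside the region) had a scaled signal of 0.343 and 0.25 in the CAST female and male and 0.645 and 0.719 in PWK, against 8.09 and 9.65 in AJ. The other strains fell between 1.78 and 8.23, and neither CAST nor PWK overlapped any of them (adjusted p = 1.44e-06). 1810019N24Rik (chr7:12960981-12962643) had 0.21 and 0.219 in PWK and 0.80 and 0.897 in CAST, and the other 12 samples lay between 2.49 and 3.48 (adjusted p = 4.33e-06). AC166748.2 (chr19:8251230-8253527) was low in CAST, at 0.305 and 0.316, next in 129 at 0.793 and 1.06 and B6 at 1.01 and 0.952, and 1.88 to 3.89 in the rest (adjusted p = 8.13e-06). CAST was thus below every other strain or below all but PWK at these 3 starts.

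The strains that stood apart were not the same at the other promoters with a small strain p. 9430037G07Rik (chr9:88598430-88600830, high CpG with the summit at −32) had 2.7 and 2.78 in WSB and 2.84 and 3.15 in NZO, then 7.88 and 9.7 in B6, and up to 24.0 and 30.4 in PWK (adjusted p = 4.22e-06). AY512931 (chr8:45062491-45064580) had 0.724 and 0.596 in CAST, 3.01 and 2.85 in WSB and 5.36 to 7.61 in the other 12 samples (adjusted p = 8.13e-06). At the predicted microRNA gene Gm24923 (chr7:62078069-62079571), CAST had 0.448 and 0.647 while the other 14 samples had 6.11 to 9.98 (adjusted p = 8.13e-06). Without the CAST samples its adjusted p was 0.690, so that this call was the difference of CAST from the rest. The snoRNA gene Gm25501 (chr3:127004810-127006342, in an intron of a coding gene) was instead high in CAST, at 4.46 and 4.96, and lowest in WSB, at 0.104 and 0.193 (adjusted p = 6.51e-06). All of these p-values are from limma with Benjamini-Hochberg adjustment.

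**Figure D3:**
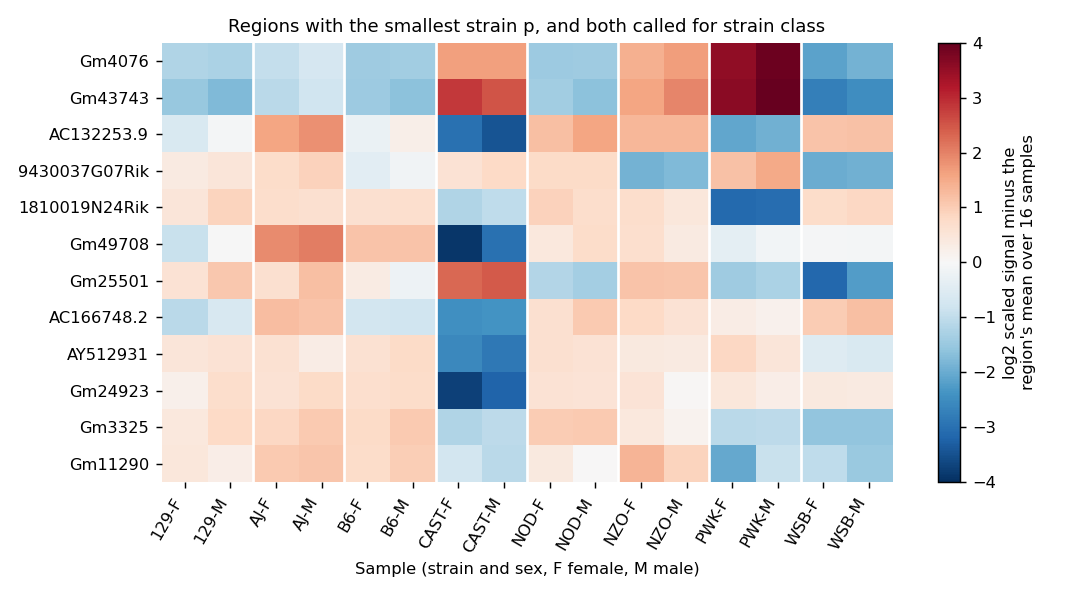
Heat map of 12 promoters (rows: the 10 with the smallest strain p and the 2 called between strain classes) in the 16 samples (columns, female and male of each strain side by side). Colour is the log2 scaled signal minus the mean of the row, clipped at 4 either way, and both sexes of a strain share a colour in nearly every row, with CAST blue in most rows.

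The highest signals stood at copies of mitochondrial DNA inserted in the nuclear genome. Of the 1687 regions, 8 matched the mitochondrial genome over 88.5% to 100% of their bases at 85.3% to 99.9% identity. They included all 4 regions with a mean scaled signal of 100 or more. These were the pseudogene regions Gm10222 (mean 788, chr1:24611516-24616201), Gm13341 (391, chr2:22587277-22590541), Gm4076 (243, chr13:85126553-85127521) and Gm11407 (100.0, chr4:80002332-80005211). The authors removed mitochondrial reads before peak calling, and how many reads of these regions came from mitochondria was not tested.

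All 8 were called for strain, where 34.9% of all regions were, and WSB was the lowest strain at 7. At Gm4076 the scaled signal was 1057 and 1378 in the PWK female and male, 282 and 281 in CAST, 242 and 289.6 in NZO and 20.8 and 24.5 in WSB. The other 8 samples lay between 33.0 and 56.9, so that PWK stood clear above all and WSB below all (adjusted p = 1.06e-07). Gm43743, a region of 131 bases, was also highest in PWK and lowest in WSB, with 32.8 and 43.3 in PWK and 0.406 and 0.477 in WSB (adjusted p = 1.06e-07). PWK was the highest strain at 5 of the 8, whereas at Gm10222 AJ was highest, at 1261 and 1638, and CAST lowest on the mean, at 349 and 388. Without these 8 regions, 660 promoters remained called (39.3%).

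Regions with another copy in the genome were called more often, for reasons that were not tested. A near-identical copy elsewhere in the genome, at 95% identity over 80% of the 300 bases, was found for 121 of the 1687 regions (7.17%). Of these, 82 (67.8%) were called for strain, and 586 of the other 1566 (37.4%) were, when 34.9% of all regions were. Copies were searched for the 1687 regions only, so the share called among all regions with a copy is not known. Gm49708 (chr16:90348235-90350157), which has 68 other copies, was an extreme case with 0.0952 and 0.176 in CAST and 5.17 and 5.75 in AJ (adjusted p = 6.51e-06). Values at such regions are uncertain.

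The highest region with no mitochondrial match was at Gm27940 (chr1:195241323-195242034), an RNA gene of unassigned class, with a mean of 18.2 and a range of 11.6 to 26.3 (adjusted p = 0.537). The 3 neighbouring long noncoding RNA genes on chromosome 17 whose promoters are printed above followed, Gm5165 at 17.6, Gm6712 at 15.2 and BC002059 at 14.4. Their summits stood at −152 to −102 from the RefSeq start. Gm5165 was higher in 129, at 24.8 and 33.6, than in the other 14 samples, at 12.6 to 19.5 (adjusted p = 0.0373). That call was kept in 9 of 24 fits that left out a sample or a strain, with an adjusted p of 0.378 without 129. Neither Gm6712 (11.6 to 21.3, adjusted p = 0.38) nor BC002059 (9.74 to 18.6, adjusted p = 0.231) passed the test. At the other end, the lowest means were 0.203 at the snoRNA gene Gm26332, 0.249 at Gm11412 and 0.25 at Gm43728, and these still carried a peak in every sample.

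Known noncoding RNA genes were followed by lists of their roles. Among abundant nuclear and structural RNAs, 9 of 28 genes lay at 14 of the regions, of which 6 were called for strain where 34.9% of all regions were, with a median scaled signal of 1.5. Of the 28, 7 had no such symbol on chromosomes 1 to 19. The starts of the nuclear RNAs Malat1 and Neat1 fell in shared regions of 5 kb or wider and so did not enter.
Rn7s2, a 7SL RNA gene of the particle that directs secreted proteins to the endoplasmic reticulum, had 5.15 at its lowest, 8.1 at the median and 11.9 at its highest (chr12:69360537-69363095). The WSB female was the lowest, at 5.15, followed by both CAST samples, and AJ was the highest, at 11.1 and 11.9, and the test did not pass (adjusted p = 0.0602). Rn7sk, the 7SK RNA that restrains elongation by RNA polymerase II, had 3.51 at its lowest, 5.24 at the median and 6.77 at its highest (chr9:78175049-78177160, adjusted p = 0.104). Both WSB samples were the lowest there, at 3.63 and 3.51. The region at Rn7s6 (chr6:69516342-69516545) ranged over 1.38 to 2.76 with a median of 1.93. Terc, the RNA template of telomerase, was lower, at 0.313 to 1.19 with a median of 0.621, with its summit 19 bases after the start.

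Within the same list, host transcripts and cancer-linked RNAs had several regions each. Mir99ahg, host of microRNAs of the miR-99 and miR-125 families, had 4, with mean scaled signals of 1.45, 0.721, 1.13 and 0.711 in the order of the chromosome, and the first, the second and the last were called (adjusted p = 0.0203, 0.046 and 0.00941). These did not share 1 order of strains. The first region was highest in PWK, at 2.44 and 1.84, and CAST had the lowest sample, and the last had its highest value in the PWK male, at 1.94, against 0.774 in the PWK female. Pvt1, a neighbour of Myc, had 2 regions, at 0.84 to 2.7 with a median of 1.45 and 0.708 to 2.25 with a median of 1.17, both called (adjusted p = 0.0441 and 0.0488) and both lowest in WSB on the strain mean. Dleu2, host of miR-15a and miR-16-1, had 2 regions with 0.699 to 2.47 with a median of 1.01 and 1.04 to 2.69 with a median of 1.63, neither called, and the highest value of the first was in the 129 female at 2.47 with 1.13 in the male. Lncpint, induced by p53, had 1.53 to 3.49 with a median of 2.31 (adjusted p = 0.186). Epb41l4aos had 0.985 to 3.29 with a median of 1.66, with 129 at 2.84 and 3.29 (adjusted p = 0.0173). Several of these calls were lost when a sample or a strain was left out, in 24 such fits. The last Mir99ahg region kept its call in 24, the first in 18 and the second in 7 (adjusted p up to 0.0793 without CAST and 0.167 without WSB). The Pvt1 regions kept theirs in 8 and 6 (up to 0.273 without CAST and 0.203 without WSB), and Epb41l4aos in 21, being lost without the 129 female, the WSB male or the 129 strain (up to 0.0731).

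Hosts of small nucleolar RNAs had the highest median of the 5 lists. Of 21 genes, 4 had no such symbol on chromosomes 1 to 19 and 1 is annotated as protein-coding. At the regions were 5, of which 3 were called for strain where 34.9% of all regions were, and the median scaled signal was 3.51, against 1.03 over all regions tested. These genes carry snoRNAs in their introns and, as a class, start with a run of pyrimidines. Snhg6 was highest, at 4.1 to 7.03 with a median of 4.89, and did not pass the test (adjusted p = 0.36). At Snhg15 (chr11:6525763-6529194) the scaled signal was 1.71 and 1.75 in the PWK female and male and 4.95 and 5.07 in 129, and the other 12 samples lay between 2.96 and 4.69. PWK was thus below and 129 above every other sample (adjusted p = 0.00579). Snhg5 ranged over 2.58 to 4.74 with a median of 3.61 (adjusted p = 0.381), and whether the strain differences of Snhg5 and Snhg15 differ was not tested.
Gas5, a growth-arrest RNA, was weaker, at 0.323 to 1.18 with a median of 0.687, highest in CAST at 1.05 and 1.18 and lowest in the PWK female at 0.323 (adjusted p = 0.0261). The fifth host, Snhg14, is described with the imprinted genes. The Gas5 region also held the starts of an antisense gene and of snoRNA genes and touched a coding exon. Of the 24 fits that left out a sample or a strain, Snhg15 lost its call only without PWK (adjusted p = 0.113 with limma), and Gas5 kept its call in 17, with the highest adjusted p of 0.122 without CAST.

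Of a list of 18 symbols for imprinted transcripts, 3 are annotated as protein-coding and 5 were not found on chromosomes 1 to 19, and none of these could enter. At the regions lay 5, of which 1 was called for strain where 34.9% of all regions were, with a median scaled signal of 1.11. Airn, which silences Igf2r on the paternal chromosome, had the steadiest signal of all 1687 regions. Its scaled signal was 1.48 at its lowest, 1.73 at the median and 1.98 at its highest (chr17:12740321-12742942), the SD of the centred log2 values was 0.12, and no strain stood apart (adjusted p = 0.867). The next steadiest were Gm19590 (1.36 to 1.91) and Gm15870 (1.37 to 1.82), both with an SD of 0.13. Kcnq1ot1, which silences genes around Cdkn1c and Kcnq1, varied more, at 0.60 to 2.89 with a median of 1.17. Its highest value was in the NZO male, at 2.89, where the NZO female had 1.25, and the test did not pass (adjusted p = 0.074). Meg3, expressed from the maternal chromosome of the Dlk1 cluster, had 0.369 to 1.17 with a median of 0.793 with the summit 2017 bases after the RefSeq start, so that its printed promoter lay in the flank of the region. Peg13 had 0.679 to 1.95 with a median of 1.01. Snhg14, the long host transcript of the Prader-Willi cluster, was called (adjusted p = 0.0361), but its region holds snoRNA repeats with 47 other copies, and the call was kept in 10 of 24 fits that left out a sample or a strain (up to 0.109 without CAST). H19 had no peak within 1 kb in any list.

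MicroRNA genes and hosts with a known role in islets formed a further list. Of 63 genes, 3 had no such symbol on chromosomes 1 to 19, 5 were at the regions, 24 had a peak within 1 kb but not in all 16 samples, 22 had none, and 7, among them Mir375, lay in shared regions within 3 kb of a coding start. Among all genes over 3 kb from a coding start, 5.69% of microRNA genes and 13.5% of long noncoding RNA genes had such a region. The regions of the 5 listed genes had a median scaled signal of 1.34. Mir17hg, host of the oncogenic miR-17 cluster, was the strongest at 3.0 to 6.75 with a median of 4.78 and did not pass the test (adjusted p = 0.0577). Mir148a ranged over 1.0 to 2.48 with a median of 1.43, Mir155hg, host of a microRNA of immune cells, over 0.976 to 2.16 with a median of 1.25, and Mir30a over 0.473 to 1.77 with a median of 1.04, and none of these was called. Mir153, which sits in an intron of Ptprn2, was the 1 called, where 34.9% of all regions were. It had 1.42 and 1.36 in the WSB female and male and 0.236 to 0.687 in the other 14 samples (adjusted p = 0.0038), and WSB overlapped no other strain. Without WSB its adjusted p was 0.165.

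Over the 72 regions whose only genes were microRNAs, 20 were called for strain, when 34.9% of all regions were. The strongest were Gm24923, described above, Mir8120 (3.83 to 6.5 with a median of 5.02), Gm24270 (2.37 to 10.1 with a median of 3.31), Mir125b-2 (2.56 to 5.34 with a median of 3.36) and Mir6236 (1.77 to 9.71 with a median of 2.68). Mir125b-2 was highest in PWK, at 5.13 and 5.34, and did not pass the test (adjusted p = 0.213). Gm24270 and Mir6236 were both highest in the 129 female, at 10.1 and 9.71, where the 129 male had 3.43 and 2.71. These 2 thus differed more within a strain than between most strains, and neither was called (adjusted p = 0.195 and 0.142).

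From a list of developmental and regulatory long noncoding RNAs, 5 of 41 genes lay at the regions and 2 were called for strain (34.9% of all regions). Over all long noncoding RNA genes more than 3 kb from a coding start, 13.5% had such a region. Of the 41, 10 had no such symbol on chromosomes 1 to 19 and 1 is annotated as protein-coding, so that these could not enter. Pantr2, a neighbour of the neural factor Pou3f3, had 0.848 to 2.93 with a median of 1.67, lowest in CAST at 0.848 and 0.971, below every other sample (adjusted p = 0.0169). Nkx2-2os, antisense to the islet factor Nkx2-2, had 0.488 to 1.05 with a median of 0.722 and Rmst, a neural RNA, 0.324 to 0.688 with a median of 0.443, and neither was called. Ptprv, which is not annotated as protein-coding here and whose place among long noncoding RNAs was not checked, ranged over 0.323 to 0.914. Bvht, studied in heart development, had 1.0 to 2.62 with a median of 1.79, with AJ below every other sample (adjusted p = 0.0483). Pantr2 lost its call without either CAST sample or both (up to 0.151), and Bvht kept its call in 6 of 24 fits that left out a sample or a strain (up to 0.459 without AJ).

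**Figure D4:**
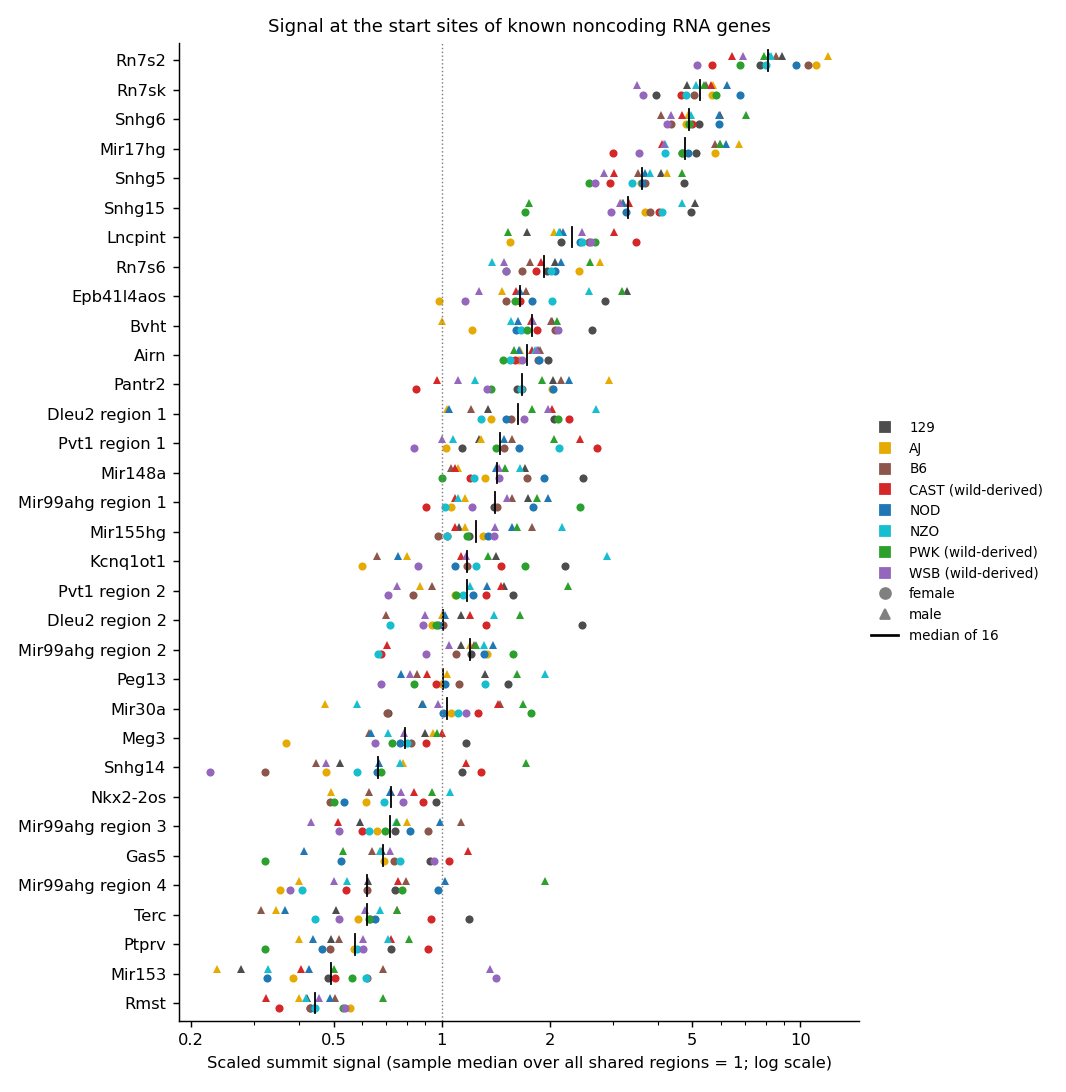
Scaled summit signal (horizontal axis, log scale, 1 being the median shared region of a sample) at the regions of the listed noncoding RNA genes, ordered by mean. Each point is a sample, coloured by strain, a circle for a female and a triangle for a male, and the black bar is the median of the 16, from 8.1 at Rn7s2 to 0.443 at Rmst.

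Among annotated spliceosomal snRNA genes, a larger share of U2 than of U6 genes lay inside the regions. Genes that begin with the first 9 bases printed above were counted on chromosomes 1 to 19. For U1, 41 of 48 such genes lay over 3 kb from a coding start and 8 were inside 7 of the regions. For U2, 16 of 18 lay that far and 9 were inside 9 regions. For U6, 213 of 234 lay that far and 3 were inside 2 regions. A region lay within 1 kb of 10 U1, 9 U2 and 9 U6 genes. Over all noncoding genes more than 3 kb from a coding start, 7.11% had such a region. A short match of the first bases does not tell working genes from copies that have decayed further along.

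The U1 genes of 1 cluster on chromosome 12 carried most of the U1 signal. There, 6 regions between 54708902 and 54739318 had mean scaled signals of 5.15 (Gm22634), 3.55 (Gm23804), 2.29 (Gm25679), 2.34 (Gm26444), 3.06 (Gm24305) and 4.35 (Gm22317). Genes with the same 70 upstream bases had similar means, as in Gm25679 and Gm26444, and in Gm22634 and Gm22317, but each of these regions has another copy that could share its reads. Gm23804 was called for strain, with 6.5 and 5.41 in CAST and 1.98 and 1.47 in PWK (adjusted p = 0.0087), while Gm24305, whose upstream bases are identical, was highest in PWK, at 4.44 and 5.09, and did not pass (adjusted p = 0.0728). PWK was thus the lowest strain at Gm23804 and the highest at Gm24305. The divergent pair Gm25890 and Gm22614 on chromosome 3 shared 1 region with a mean of 0.861, with 1.74 and 1.32 in 129 and 0.372 and 0.354 in NOD (adjusted p = 0.00429). The call of Gm23804 was lost without CAST or without PWK (up to 0.0662) and that of Gm25890 without NOD (0.0723).

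The U2 genes fell in a strong and a weaker cluster. On chromosome 1, between 72224180 and 72257119, 4 regions had means of 3.27 (Gm25360), 3.51 (Gm23472), 3.56 (Gm24497) and 3.45 (Gm25939). Gm23472 had 7.47 and 6.9 in CAST and 6.98 and 3.81 in PWK, against 1.77 to 3.95 in the rest (adjusted p = 0.00106), and the PWK male overlapped AJ. Its neighbour Gm25360, with identical upstream bases, was instead lowest in the PWK female, at 1.94, and highest in the 129 female, at 4.88 (adjusted p = 0.0243). On chromosome 11, Gm23444 had a mean of 1.71 and was highest in CAST, at 3.37 and 3.07 (adjusted p = 0.0125), and Gm24950, Gm23971 and Rnu2-10 had means of 1.33, 1.13 and 1.11. Of these only Rnu2-10 was called (adjusted p = 0.0432), with 1.15 and 3.09 in the NZO female and male and 0.646 and 0.327 in AJ. Gm22973 on chromosome 12 was the weakest, at 0.581. The summits of the 9 U2 regions lay 30 to 159 bases after the start of the RNA. The U6 regions had means of 2.35 (the divergent genes Gm24859 and Gm23296) and 1.19 (Gm25064), and neither was called. Their summits lay 680 bases before the start of Gm24859 and 342 bases before that of Gm25064, so these signals were not centred on the U6 starts. When a sample or a strain was left out, in 24 fits, Gm23472 kept its call in all, Gm23444 lost it without either CAST sample or both (up to 0.142), Gm25360 kept it in 14 (up to 0.064) and Rnu2-10 in 8 (up to 0.138 without AJ).

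**Figure D5:**
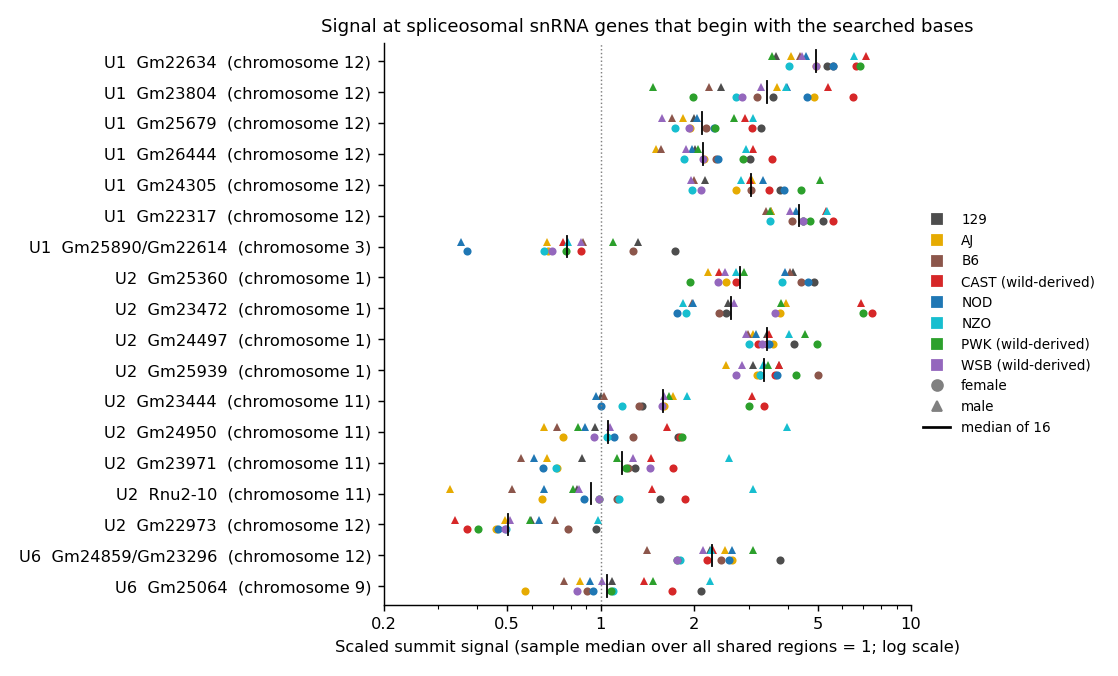
Scaled summit signal (horizontal axis, log scale, 1 being the median shared region of a sample) at the 18 regions that hold a U1, U2 or U6 gene with the searched first bases. Each point is a sample, coloured by strain, a circle for a female and a triangle for a male, and the black bar is the median of the 16. The chromosome 12 U1 cluster and the chromosome 1 U2 cluster stand above 1 in all samples.

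Few regions were called for sex, and the choice of regions limits what could be seen. Every region had to be called in both sexes of all strains, so a region open in 1 sex could not enter. The 1687 promoters are autosomal, whereas all shared regions include the X chromosome. The authors state that using both sexes to define peaks largely drove their own small number of sex effects. Across all shared regions, 0.00943% (4 of 42416) were called for sex with limma at an adjusted p under 0.05, and 0 of the 1687 promoters were. At an unadjusted p under 0.05 there were 79 promoters (4.68%) and 1728 of all regions (4.07%). The smallest p belonged to the snoRNA genes Gm23270 and Gm24578, higher in males by 0.58 ± 0.15 and 0.43 ± 0.12 on the log2 scale (SE), and both had an adjusted p of 0.999 and did not pass.

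Wild-derived and classical strains were compared over the 8 strain means. Of all regions, 0.033% (14 of 42416) were called, 0.0259% lower and 0.00707% higher in wild-derived strains. Among the promoters 2 were called, both lower. Without WSB 12 were called, with 0.825% of all regions, and without the NZO female, the 129 strain or the B6 strain 0 were. Gm3325, a transcribed pseudogene with 1 other copy (chr13:62015220-62016631), had 2.1 and 2.36 in CAST, 2.27 and 2.34 in PWK and 1.6 and 1.62 in WSB, and 5.35 to 10.0 in the 10 samples of the classical strains. The difference was −2.01 ± 0.24 (SE) on the log2 scale (limma, adjusted p = 0.0172), and the classes did not overlap. Gm11290, a long noncoding RNA gene in the histone cluster of chromosome 13 (chr13:22015449-22016065), had 0.194 to 0.486 in the 6 wild-derived samples and 0.817 to 2.07 in the classical ones. Its difference was −1.89 ± 0.27 (adjusted p = 0.0391), and it lay in a region whose edge was 968 bases from the start. At an unadjusted p under 0.05 there were 238 promoters (14.1%) and 12.2% of all regions.

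Reproducibility between the sexes was also scored by the authors as an irreproducible discovery rate (IDR) for each strain. At an IDR of 0.05, 922 of the promoters (54.7%) overlapped a peak in all 8 strain lists, compared with 53.6% of all shared regions, 78.9% of coding promoters and 41.5% of distal regions. By strain the share ran from 70.1% in NZO to 96.2% in WSB. Near the limits of the rule, regions just inside and just outside had like levels. The region at Gm15560, 999 bases from its start, had a mean of 0.577 and that at AC105304.1, at 1001 bases, 0.462. For the distance to a coding start, 1700042O10Rik at 3070 bases had 0.509 and Gm48257 at 2998 bases 0.468. For width, Gm43177 at 4944 bases had 4.25 and Gm42642 at 5004 bases 5.97.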

How the data were processed

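ATAC-seq was performed on 16 islet samples of 8 strains. Per the labels and the study, the authors trimmed reads with cutadapt 2.0, aligned them to mm10 with Bowtie2 2.3.4.1, removed unmapped, mitochondrial and duplicate reads (SAMtools, Picard 2.9.2), called peaks in each sample by MOSAiCS (FDR 0.05), and scored IDR between the sexes of each strain. A shift of read ends for the transposase was not stated. The deposited signal at the summit is a whole number and was not scaled to depth. The deposited mean signal, of which the lists do not say what it averages, served as an alternative. Significance and IDR were deposited on a −log10 scale. Every measurement column was mapped to a sample or strain.

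Peaks that overlapped by at least 1 base were merged, and genes came from GENCODE M21 on GRCm38. Each sample was given its highest summit in a region. Signal was taken as log2(signal + 1) and each sample was centred on its median over the 42416 regions called in all 16 samples, X included, which takes the typical shared region as alike in all samples. Fold changes are understated where signal is low. limma 3.58.1 (R 4.3.3) tested strain and sex in 1 model and strain class on strain means, with Benjamini-Hochberg adjustment over all 42416 regions. The study tested read counts, and the lists hold none. The fits were tested on simulated data. The 300-base windows were compared with the genome and the regions with the mitochondrial genome by BLAST+ 2.17.0+. Sequences were read with pysam 0.24.0 and aligned with Biopython 1.88. Tables were handled with Python 3.11.15, pandas 2.3.3, numpy 2.4.6 and scipy 1.17.1.

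Named genes were those of the role lists, the 10 with the smallest strain p, those called or with the smallest p for sex and class, the 5 highest, 3 lowest and 3 steadiest regions, the 3 widest ranges, the 5 strongest microRNA regions and those at the limits of the rule. The regions and lists were chosen with earlier results of these data known. The snRNA genes, the shown promoters and the matches to other copies were chosen after values were seen. Alternatives in scaling, measure, filter, variance model and samples are given in the closing section.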

Additional observations from a re-analysis of the deposited data

Results flagged for a closer look

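Each measure was examined for single samples that stood apart, in the 8 females and in the 8 males on their own. A sample was listed when its gap to the nearest other sample exceeded, as a share of the range of its group, the 95% critical value of Dixon's test for 8 samples. This was so in 14 of 98 groups, over 49 measures, and chance lists about 1 in 20 groups. Many of the measures were chosen for strain differences, which favours such samples, so that this number is not read against chance.

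At 4 promoters both sexes of a strain were listed. The scaled signal of Mir153 was 1.42 in the WSB female, where the other females had 0.326 to 0.619, and 1.36 in the WSB male, where the other males had 0.236 to 0.687. Gm4076, with a match to the mitochondrial genome, had 1057 in the PWK female and 1378 in the PWK male, against highest other values of 282 and 289.6. Gm25501 had 4.46 and 4.96 in the CAST female and male, against up to 2.0 and 2.07. Gm24923 had 0.448 and 0.647 in the same CAST samples, lowest of each sex, where the other females had at least 6.78 and the other males at least 6.11.

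At the remaining 6 promoters 1 sex was listed. Gm43743, the other region of mitochondrial descent, had 43.3 in the PWK male, with the next male at 15.4. The region of Gas5, named by Gm37634, had 1.18 in the CAST male, above 0.415 to 0.716 in the other males. Kcnq1ot1 had 2.89 in the NZO male against up to 1.42, and Rn7s2 had 11.9 in the AJ male against up to 8.88. Dleu2 had 2.47 in the 129 female against up to 1.33. The last of the 4 Mir99ahg regions, at 77593811 on chromosome 16, had 1.94 in the PWK male against up to 1.02.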

How the results depend on the processing

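The number of regions that met the rule was 1687 and ranged from 1188 to 1836 when start sites, gene types, the point of measurement or the merging of touching peaks were changed. It fell to 153 when the peaks of each sample had to cover at least 0.5 of the region and to 1024 with the more significant part of each list, all of which were among the 1687. The count of promoters called for strain, 668, lay between 549 and 765 under quantile normalization, GC-matched centring, mean signal, a pseudocount of 10, an intensity trend and a fit with no sex term. Under these settings 27.2% to 41.1% of all regions were called. The count was 1102 (65.3%) without centring, when 62.3% of all regions were called. It was 336 (19.9%) when all 69223 regions called in at least 12 samples were fitted, of which 17.9% were called. Leaving out samples or strains gave 315 to 1043, the fewest without CAST and the most without the NZO female. Leaving out the CAST female or the CAST male gave 391 or 387.

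No promoter was called for sex under any setting. For strain class the 2 calls became 7 without centring, 1 with quantile normalization, 1 with mean signal and 0 with regions called in at least 12 samples. The shares of all regions called were then 0.172%, 0.0236%, 0.0424% and 0.00578%. Among regions with no near-identical copy elsewhere, 1 was called, as Gm3325 has a copy. Leaving out samples or strains gave 0 to 12, the most without WSB, when 0.825% of all regions were called. Gm3325 kept its call in 21 of 24 such fits and Gm11290 in 8 of 24, with differences of −2.12 to −1.84 and −2.08 to −1.70 on the log2 scale. Of 38 named promoters called for strain, 16 kept the call under all 32 settings and 22 lost it at least once. Merging touching peaks and the counts without copies or mitochondrial matches were chosen after the data were seen. The causes of these shifts were not tested. The lists do not give the depth per sample, so it could not be weighed against the low values of the PWK male, whose list had the lowest median summit. The labels give no replicate numbers, and sex, the 1 factor that links samples across strains, was a term of the model.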

Other observations

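The snoRNA repeats of the Prader-Willi cluster on chromosome 7 held 8 of the regions. These C/D box snoRNAs (the SNORD116 family) are cut from the introns of a long transcript that is expressed from the paternal chromosome. The 8 regions had mean scaled signals of 0.203 to 1.93, the highest at Gm25210, and each had 47 to 69 other near-identical copies, so that reads cannot be placed with certainty. Strain was called at 4 of them, Gm23446, Gm25210, Gm26097 and Snhg14, where 34.9% of all regions were called.

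Of the 22 regions at immunoglobulin and T cell receptor segments, 14 lay in the alpha and delta receptor locus on chromosome 14, 4 in the heavy chain locus on chromosome 12, 3 in the beta receptor locus on chromosome 6 and 1 in the gamma receptor locus on chromosome 13. Strain was called at 9, 4, 3 and 1 of these, where 34.9% of all regions were called, and 10 of the 22 had another near-identical copy. Trav13n-3 and Trav13-3 had ranges of 4.00 and 4.17 log2 units between strain means, both highest in NOD and lowest in CAST. Ighv4-2 had 3.98 and was highest in CAST and lowest in NZO. Trav13-3 and Ighv4-2 are annotated as pseudogenes. Trbv12-2, with no other copy, had the highest level of these regions at 2.06 and was highest in NOD (adjusted p = 0.00685 with limma). The leukocyte genes Cd79a and Cd3e had no promoter peak in any sample and Ptprc had one in 15, at a median scaled signal of 0.217, and the part of leukocytes in these values was not tested.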
